A study of Mus musculus with 7 samples.

Results

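The genes described here are 10 transcription factors of the heart, Gata4, Gata6, Nkx2-5, Tbx5, Tbx20, Tbx2, Tbx3, Mef2a, Mef2c and Hand2. They were chosen by name, with earlier results of these data known, and matched on the gene symbol in the deposited comparison table. All 10 were found among the 14641 genes of the series. The series holds 7 libraries of heart RNA, 4 labelled non-transgenic (NTG) and 3 of the mNrf2-TG line. The labels do not say that each library is a separate mouse, so the p-values measure the spread between these libraries. All mice were male on the C57BL/6J strain. The mNrf2-TG mice carried full-length mouse Nrf2 behind the αMHC promoter, which is active in cardiomyocytes, and the NTG mice were their littermates without the transgene. The source label of the mNrf2-TG mice gave an age of 6 months, and no age is recorded from the labels of the NTG mice. For both groups the design text gave 7 to 8 months and the methods 6 to 7 months.

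Cardiac transcription factors form a network that is known for building the heart in the embryo and that stays active in the adult. GATA factors, the homeodomain factor Nkx2-5, T-box factors, MEF2 factors and the bHLH factor Hand2 bind the promoters and enhancers of sarcomere, ion channel and natriuretic peptide genes, often together, and several regulate each other. Tbx5 and Tbx20 are known mainly for chamber myocardium, whereas Tbx2 and Tbx3 repress chamber genes and mark the atrioventricular canal and the conduction system. The comparison asks how the level of each factor differed when Nrf2, a factor of another family that drives antioxidant genes, was overexpressed in cardiomyocytes.

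Totals on the listed genes ran from 6534684 to 8405857 counts per library. Nfe2l2, the gene of Nrf2, was counted 10912 to 12839 times in each mNrf2-TG library, transgene reads included, against 729 to 1392 times in each NTG library, so no library went against its label. NTG replicate 3 stood apart from the other NTG libraries in genes such as Nppb and Myh6. Values without it are given beside some of the results that rest on it. The tissue is labelled as whole heart, but the atrial myosin light chain gene Myl7 had 0 to 4 counts per library and Myl4 17 to 65, while the ventricular Myl2 had 54302 to 110676. Of the other atrial markers tested, Dkk3 had 13 to 37 counts, Nr2f2 87 to 140 and Nppa 658 to 3592. The values below therefore describe tissue with few transcripts of the atrial myosin light chain genes. In such bulk tissue, fewer cells of a type and less RNA per cell cannot be told apart.

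Of the 10 factors, 5, namely Hand2, Tbx2, Tbx3, Mef2a and Gata6, were lower in mNrf2-TG at an adjusted p under 0.05, and none was higher. The Log2FC, the log2 of the mNrf2-TG level over the NTG level, was -1.50 for Hand2, -0.71 for Tbx2, -0.64 for Tbx3, -0.47 for Mef2a and -0.39 for Gata6. Among all 14637 genes tested, 8.73% were lower and 8.48% higher at this threshold, against 5 and 0 of the 10 factors. The median Log2FC of the 10 factors was -0.31, and that of all genes tested was 0.0012. The normalized counts of these 5 factors did not overlap between the groups, with mNrf2-TG lower in all 5. Such a separation was found for 29.7% of all genes, 14.7% lower and 15.0% higher in mNrf2-TG. The counts of the other 5 factors did overlap. Hand2 was the only one of the 10 called at more than a 2-fold decrease, among 183 genes of the series.

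**Figure D1:**
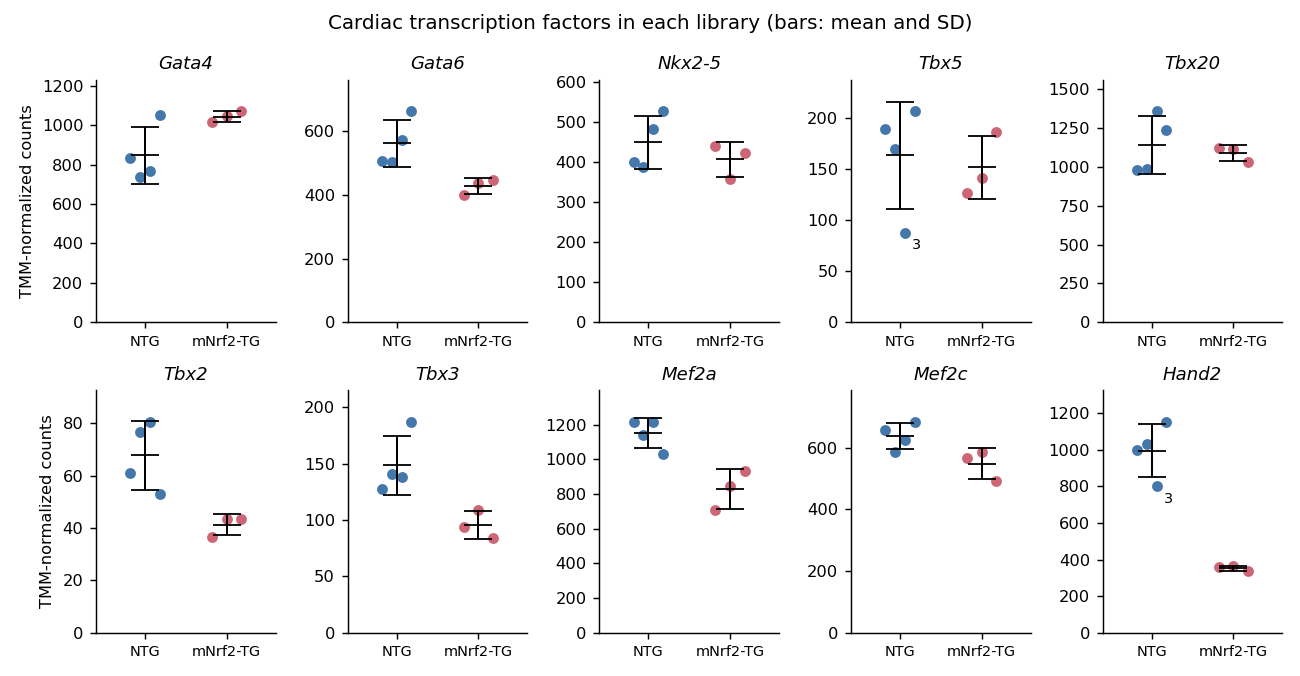
TMM-normalized counts of each of the 10 factors (vertical axes from 0, one scale per gene) in the 4 NTG and 3 mNrf2-TG libraries. Points are libraries, bars are the mean and SD, and NTG replicate 3 is marked in 2 panels. For Hand2 the mNrf2-TG libraries lie at 335 to 363 and the NTG libraries at 799 to 1150.

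Hand2 encodes a bHLH factor needed for the right ventricle and for vascular development in the embryo, and it is expressed in cardiomyocytes and in cardiac fibroblasts. The gene lies on chromosome 8, 57320983 to 57324633 on the plus strand of GRCm38 (Entrez gene 15111), with 2 exons. In the NTG libraries 1 to 4 Hand2 had 996, 1030, 799 and 1150 normalized counts, and in the mNrf2-TG libraries 17 to 19 it had 358, 363 and 335. The highest mNrf2-TG library was thus below the lowest NTG library, which was NTG replicate 3. The mean fell from 994 ± 146 (SD, n = 4) to 352 ± 14.9 (SD, n = 3), or 0.354 of the NTG level. The Log2FC was -1.50 (SE 0.118, 95% interval -1.76 to -1.23), with an adjusted p of 5.21e-05 in edgeR. By its p, Hand2 ranked number 6 among the 7309 genes with a negative Log2FC. Leaving out any 1 library gave values between -1.59 and -1.42, all called.

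The annotation places the RNA gene Hand2os1 on the opposite strand over 3251 bases of Hand2, with 461 shared exonic bases. Hand2os1 was not analysed here. The libraries were made with a stranded kit, but the use of strand in the counting is not given in the sources used here, so reads of the 2 genes may not be separated.

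Because Hand2 carried the largest difference, the 250 bases before its start are shown (RefSeq, GRCm38.p6, chr8:57320733-57320982, plus strand, 5′ to 3′), with capitals marking the matches to the NKX2-5 letters AAGTG and the GATA letters AGATAA, both on the reverse strand.

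Hand2: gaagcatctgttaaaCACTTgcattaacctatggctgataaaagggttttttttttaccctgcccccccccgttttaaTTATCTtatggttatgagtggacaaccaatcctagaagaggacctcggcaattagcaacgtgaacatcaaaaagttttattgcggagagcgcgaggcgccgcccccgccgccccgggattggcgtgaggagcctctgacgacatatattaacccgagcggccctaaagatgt

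Promoter windows of 300 bases, 250 before to 50 after the start, were at hand for 5 of the 10 factors (Hand2, Mef2a, Mef2c, Nkx2-5 and Tbx20), in 7 windows, 3 of them of Mef2c. The core letters of the antioxidant response element to which Nrf2 binds, TGACNNNGC on either strand, were found in 12.4% of the 32851 windows of all genes and in 0 of these 7. The GATA letters occurred in 11.2% of all windows and, among the 7, only in that of Hand2. The AAGTG letters were in 46.4% of all windows and in 4 of the 7, those of Hand2 and Mef2c. These matches, which did not overlap each other, are descriptions of letters and not of bound sites.

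The T-box repressors Tbx2 and Tbx3 were the next largest decreases and also the least abundant of the 10 factors. Both are known to hold chamber genes such as Nppa, Gja5 and Gja1 down in the atrioventricular canal and conduction system. Tbx2 (chromosome 11, 85832551 to 85841948) had 60.9, 76.5, 80.4 and 52.8 normalized counts in NTG 1 to 4 and 36.6, 43.4 and 43.6 in mNrf2-TG 17 to 19. The groups were separate. Its Log2FC was -0.71 (standard error 0.189, 95% interval -1.13 to -0.29, adjusted p = 0.0286). This call was lost without NTG replicate 2 (adjusted p = 0.0823) and without mNrf2-TG replicates 17, 18 or 19 (0.101, 0.0684 and 0.0667).

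Tbx3 lies on chromosome 5, 119670669 to 119684724, with its end 147943 bases before the start of Tbx5 on the same strand. It had 128, 141, 138 and 187 normalized counts in NTG 1 to 4 and 93.6, 109 and 84.4 in the mNrf2-TG libraries. No mNrf2-TG library reached the lowest NTG library. The Log2FC was -0.64 (standard error 0.157, 95% interval -0.98 to -0.29, adjusted p = 0.0216). Without mNrf2-TG replicate 17 the adjusted p was 0.0743 and without replicate 19 it was 0.0811. The antisense gene Tbx3os1, not analysed here, shares 115 exonic bases with Tbx3.

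Its neighbour Tbx5 (chromosome 5, 119832668 to 119885219), the factor mutated in Holt-Oram syndrome and an activator of Nppa and Gja5, was not called. Tbx5 had 190, 170, 87.7 and 207 normalized counts in NTG and 127, 142 and 187 in mNrf2-TG. NTG replicate 3 was the lowest of all 7 libraries and the other NTG libraries overlapped with mNrf2-TG replicate 19. The Log2FC was -0.10 with a 95% interval from -0.67 to 0.46 (adjusted p = 0.822), the widest interval among the 10 factors. Without NTG replicate 3 it was -0.31 (adjusted p = 0.179).

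Tbx20, a factor of adult cardiomyocytes and the valves (chromosome 9, 24718138 to 24774303), ranged from 979 to 1359 normalized counts in NTG and from 1033 to 1124 in mNrf2-TG. The mNrf2-TG libraries lay inside the NTG range. The Log2FC was -0.06, with a 95% interval from -0.33 to 0.20 (adjusted p = 0.755).

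The GATA factors Gata4 and Gata6 are zinc finger proteins with overlapping roles in cardiomyocyte growth, and their Log2FC had opposite signs here. Gata6 (chromosome 18, 11052064 to 11085635), which is also expressed in smooth muscle and endocardium, had 508, 505, 574 and 663 normalized counts in NTG and 400, 438 and 448 in mNrf2-TG. All 3 mNrf2-TG libraries were below every NTG library. The Log2FC was -0.39 (standard error 0.106, 95% interval -0.63 to -0.15, adjusted p = 0.0317). The call was lost without NTG replicate 4 (adjusted p = 0.0511) and without mNrf2-TG replicates 17, 18 or 19 (0.116, 0.0776 and 0.0626). The opposite-strand gene 1010001N08Rik, not analysed here, shares 93 exonic bases with Gata6.

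Gata4 (chromosome 14, 63198922 to 63271692), a regulator of natriuretic peptide and hypertrophy genes, was the only factor of the 10 with a positive Log2FC. It had 831, 735, 765 and 1053 normalized counts in NTG and 1015, 1045 and 1070 in mNrf2-TG. Only NTG replicate 4 reached the mNrf2-TG range. Its Log2FC of 0.30 (standard error 0.116, 95% interval 0.05 to 0.56) had an unadjusted p of 0.0257 and an adjusted p of 0.101. Without NTG replicate 4 the Log2FC was 0.43 and Gata4 was called (adjusted p = 0.00946).

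A ratio taken within a library does not depend on how libraries are scaled. Counts per exonic base of Gata4 over those of Gata6 were 2.73, 2.42, 2.22 and 2.65 in NTG and 4.23, 3.98 and 3.98 in mNrf2-TG, with no overlap. The ratio of Mef2a to Mef2c was 1.94 ± 0.22 (SD, n = 4) in NTG and 1.64 ± 0.356 (SD, n = 3) in mNrf2-TG, and the groups overlapped. Tbx3 over Tbx2 was 1.26 ± 0.463 and 1.28 ± 0.191, also with overlap. For Tbx20 over Tbx5, NTG replicate 3 had 6.04 and the other NTG libraries 2.01 to 2.32, against 2.15 to 3.45 in mNrf2-TG.

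**Figure D2:**
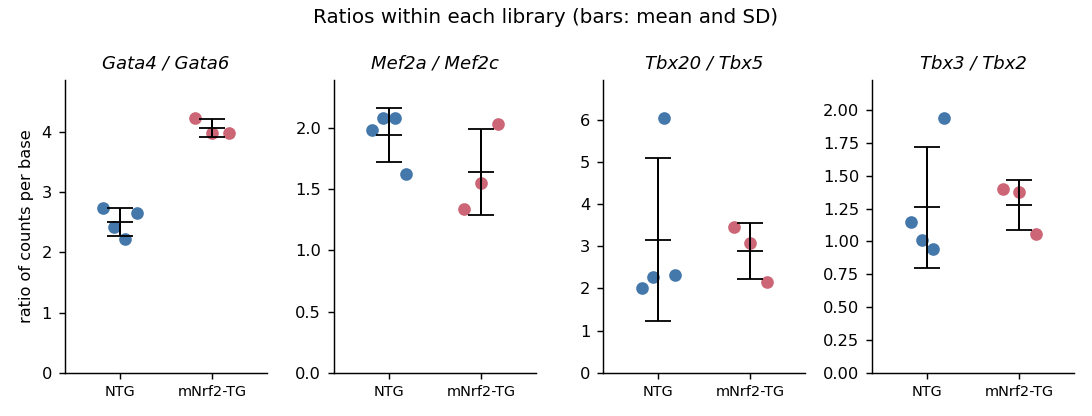
Ratio of counts per exonic base between 4 pairs of related factors within each library (vertical axes from 0), with points for the 4 NTG and 3 mNrf2-TG libraries and bars for the mean and SD. Only the ratio of Gata4 to Gata6 is separate between the groups, at 2.22 to 2.73 in NTG and 3.98 to 4.23 in mNrf2-TG.

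MEF2 factors are MADS-box proteins that activate muscle structural and metabolic genes. Mef2a (chromosome 7, 67231163 to 67372858) had 1215, 1139, 1214 and 1032 normalized counts in NTG and 708, 847 and 934 in mNrf2-TG. The groups were separate and mNrf2-TG replicate 17 was the lowest. The mean went from 1150 ± 86.5 down to 830 ± 114, and the Log2FC was -0.47 (standard error 0.103, 95% interval -0.70 to -0.24, adjusted p = 0.0133). Mef2a was called with any 1 library left out, with adjusted p-values from 0.0139 to 0.0477. The span of Lysmd4 lies on the opposite strand and shares 302 exonic bases with Mef2a. Lysmd4 itself was not called (Log2FC -0.03, adjusted p = 0.886).

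The start of Mef2a holds a match to the letters of a MEF2 site (CTA and TAG with 4 bases between them), which is in 3.69% of all promoter windows. It is shown in capitals in the 30 bases around the start (RefSeq, GRCm38.p6, chr7:67372846-67372875, minus strand, 5′ to 3′).

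Mef2a: gccgaggcctgactcCTAAAAATAGccccg

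No other of the 7 windows held these letters. The T-box core letters GGTGTG, in 19% of all windows, was found in that of Mef2a and in one of Mef2c.

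Mef2c (chromosome 13, 83504034 to 83667080), the MEF2 gene needed for the early heart tube, ranged from 586 to 683 normalized counts in NTG and from 492 to 586 in mNrf2-TG, so that the groups met at one value. The Log2FC was -0.22 with a 95% interval from -0.41 to -0.02, an unadjusted p of 0.0307 and an adjusted p of 0.113. Mef2d, another MEF2 gene of the adult heart, had a Log2FC of -0.04 (adjusted p = 0.806).

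Nkx2-5 (chromosome 17, 26838664 to 26845009), the homeodomain partner of Gata4 and Tbx5, ranged from 357 to 439 normalized counts in mNrf2-TG, inside or just below the NTG range of 388 to 526. The Log2FC was -0.14, with a 95% interval from -0.42 to 0.13 (adjusted p = 0.46).

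**Figure D3:**
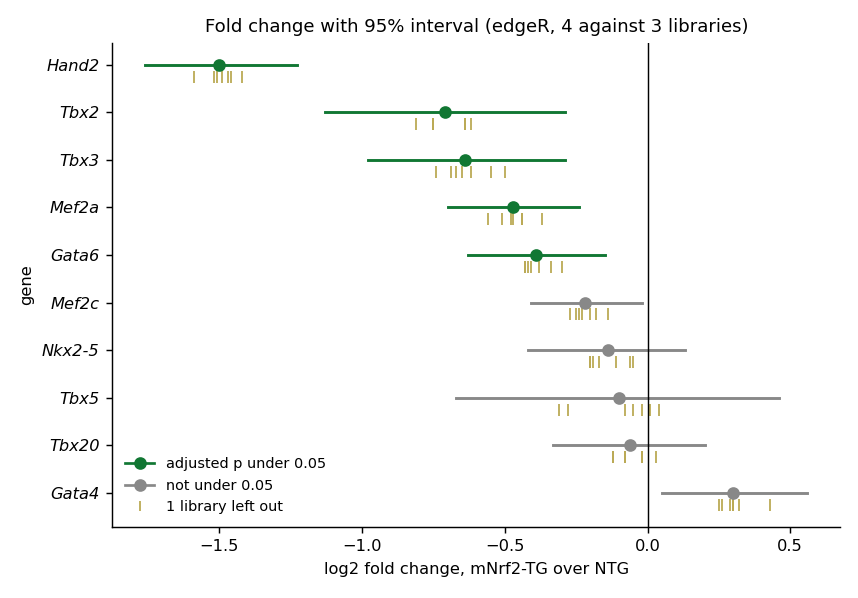
Log2FC of mNrf2-TG over NTG for the 10 factors (horizontal axis), as point and 95% interval from edgeR, with the value from each fit that left out 1 library as a tick below it. Green marks an adjusted p under 0.05, which holds for Hand2, Tbx2, Tbx3, Mef2a and Gata6, and the interval of Gata4 lies to the right of 0.

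Levels between genes were compared as RPKM, which scales reads by exonic length and by library size. In NTG, Hand2 was the most abundant factor at 56.1 ± 8.23 RPKM, above 95.1% of all genes, followed by Nkx2-5 at 34.7 ± 5.13 and Gata4 at 28.8 ± 4.89. Hand2 was separate from Nkx2-5, whereas Nkx2-5 and Gata4 overlapped over the libraries. Tbx20, Gata6 and Mef2a followed at 12.6, 11.5 and 10.4 RPKM with overlap between neighbours, and Mef2c and Tbx5 at 5.39 and 4.65. Tbx3 and Tbx2 were lowest, at 2.98 and 2.48 RPKM, overlapping each other.

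In mNrf2-TG the order was Gata4 at 35.5 ± 0.946 RPKM, Nkx2-5 at 31.4 ± 3.36 and Hand2 at 19.9 ± 0.84, with no overlap between these neighbours. On this length, the places of the other 7 factors were as in NTG. Exonic length bears on these levels, since the joined exons of Mef2a and Mef2c are 14681 and 15715 bases long and their longest transcripts 5538 and 6277. With the longest transcript as the length, Mef2a stood at place 4 instead of 6 in NTG, at 27.6 RPKM, and Gata6 came before Tbx20. In mNrf2-TG, Mef2a and Hand2 were then at places 3 and 4, both at 19.9 RPKM, and Tbx20 came before Gata6.

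**Figure D4:**
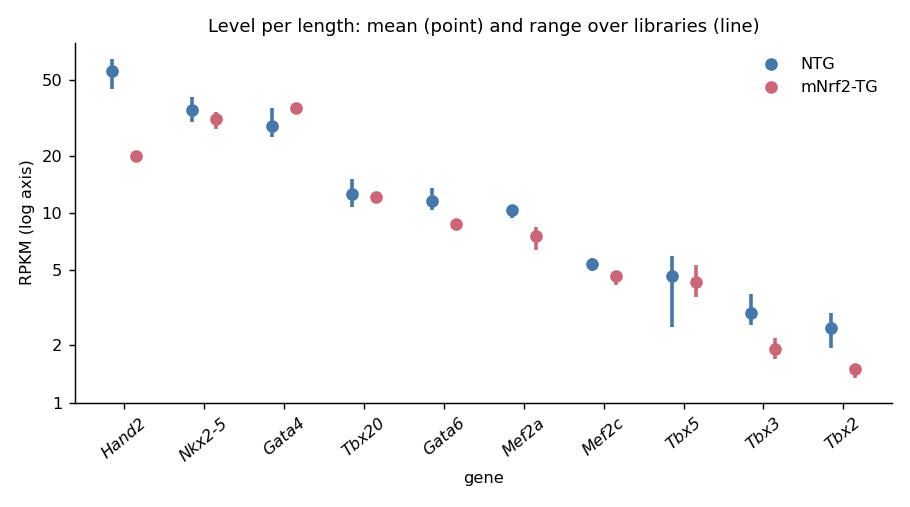
RPKM of the 10 factors on a log axis, ordered by the NTG mean, with the mean as a point and the range over libraries as a line for NTG (n = 4) and mNrf2-TG (n = 3). Hand2 is first in NTG at 56.1 RPKM and below Gata4 and Nkx2-5 in mNrf2-TG at 19.9.

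For each factor that was called, the genes with the most similar profile over the 7 libraries were sought among 12328 genes with a mean CPM (counts scaled to library size) of at least 1. Likeness was the root mean square difference of centred log2 values. Nearest to Hand2 were Ptgs2, which encodes cyclooxygenase 2 (difference 0.132, Log2FC -1.86), the glycerol-3-phosphate dehydrogenase gene Gpd1 (0.146, Log2FC -1.48) and the G protein subunit gene Gnb3 (0.172, Log2FC -1.44). The nearest gene was Spsb1 for Tbx2 (0.079), Pin4 for Tbx3 (0.107), Sbf2 for Mef2a (0.062) and Phc1 for Gata6 (0.061). Next came Klf15 and Rbm12 for Tbx2, Slc24a3 and Hmgb3 for Tbx3, Slc52a3 and Spata33 for Mef2a, and Rps26 and Mtus1 for Gata6.

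Beyond the 10 factors, a list of 38 other transcription factors of heart development and muscle was read from the same fit, of which 34 were tested. Of these, 5 were lower, 1 was higher and 28 were not called, with a median Log2FC of -0.13. The share called, 17.6%, was close to the 17.2% of all genes. Myocd, the SRF coactivator myocardin, was at 814 ± 152 normalized counts in NTG and fell to 508 ± 107 (Log2FC -0.68, adjusted p = 0.0246), although NTG replicate 3, at 591, lay below mNrf2-TG replicate 19, at 617. Its partner Srf was not called (Log2FC 0.05, 95% interval -0.16 to 0.26). The Notch target Hey1 had a Log2FC of -0.68 (adjusted p = 0.0214) and the forkhead factor Foxp1 -0.55 (adjusted p = 0.0273). The homeodomain-only protein gene Hopx, an antagonist of SRF, rose from 2442 ± 310 to 3557 ± 176 (Log2FC 0.54, adjusted p = 0.00654). With 1 library left out, Hopx was called in all 7 fits, Hey1 in 4, Foxp1 in 3 and Myocd in 2. Tead1 (Log2FC -0.23) and Tbx1 (Log2FC -2.05, at 7 counts or fewer per library) were the other decreases, called in 0 and 2 of these 7 fits. Tbx18, an epicardial and sinus node factor, was not called (Log2FC -0.10, adjusted p = 0.835).

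Among partners and regulators of the factors, the share called in either direction was 20% of the GATA cofactors, 16.7% of the MEF2 regulators and 10% of the BMP pathway genes tested, against 17.2% of all genes. Of 5 GATA cofactors, only the acetyltransferase gene Ep300 was called (Log2FC -0.40, adjusted p = 0.0068), from 760, 730, 663 and 670 normalized counts in NTG to 526, 527 and 546 in mNrf2-TG. Zfpm2 (FOG2), which binds Gata4 and restrains it, had a Log2FC of -0.32 (adjusted p = 0.129). Of 12 regulators of MEF2, 2 were lower, 0 higher and 10 not called. Hdac4, a class IIa histone deacetylase that binds and represses MEF2, dropped to 111 ± 17 normalized counts from 254 ± 51.4. Its Log2FC was -1.20 (SE 0.172), with an adjusted p of 0.00206. Its libraries were separate, at 207 to 303 in NTG and 97.6 to 130 in mNrf2-TG.

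The other class IIa deacetylases were not called. The Log2FC was 0.27 for Hdac5 (adjusted p = 0.0647), -0.03 for Hdac7 (0.835) and 0.42 for Hdac9 (0.143). Hdac5 was called without NTG replicate 3 (Log2FC 0.34, adjusted p = 0.0131) and with library totals alone as the scaling (0.30, adjusted p = 0.0415). Hdac9 was called without NTG replicate 4 (0.65, adjusted p = 0.00312). Ppp3ca, which encodes a catalytic subunit of calcineurin, was the other MEF2 regulator that fell (Log2FC -0.32, adjusted p = 0.0254). It was called in 3 of 7 fits with 1 library left out. Ppp3cb, which encodes another catalytic subunit, was not called (Log2FC -0.08, adjusted p = 0.535). Among 10 tested genes of the BMP pathway, which induces Tbx2 in the embryo, only the BMP target Id1 was called, with a Log2FC of -0.61 (adjusted p = 0.00931).

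Genes that these factors are known to control did not move together. Of 34 such target genes, 5 were higher, 8 lower and 21 not called, with a median Log2FC of -0.12. The share called was 38.2%, against 17.2% of all genes, in a list chosen with earlier results of these data known. The highest increases were those of Ankrd1, a stretch-responsive target of Gata4 (Log2FC 1.51, adjusted p = 0.0112), and of Nppa, a target of Gata4, Nkx2-5 and Tbx5 that Tbx2 and Tbx3 repress (Log2FC 1.47, adjusted p = 0.00727). Nppa had 756, 670, 1416 and 1201 normalized counts in NTG and 3866, 1987 and 2537 in mNrf2-TG. The related peptide gene Nppb had a Log2FC of 1.24 (adjusted p = 0.199) with NTG replicate 3 at 5428 normalized counts, and without that library it was called (2.38, adjusted p = 0.000202).

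The gap junction genes differed from each other. Gja1, which encodes connexin 43, rose (Log2FC 0.50, adjusted p = 0.0369, called in 2 of 7 fits with 1 library left out), whereas Gja5, which encodes connexin 40, had a Log2FC of 0.07 (adjusted p = 0.83). The potassium channel gene Kcnh2 rose, with a Log2FC of 0.79 (adjusted p = 0.00562).

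Among sarcomere targets, Myl2 dropped to 63577 ± 4866 normalized counts from 94599 ± 7178 in NTG (Log2FC -0.57, adjusted p = 0.00165). Myh6 had a Log2FC of -0.28 (adjusted p = 0.222) and Myh7 of 0.13 (adjusted p = 0.757). Without NTG replicate 3 these were -0.1 for Myh6 and 0.4 for Myh7, and neither gene was called. The MEF2 target Ppargc1a, a coactivator of mitochondrial genes, fell by 1.32 on the log2 scale (adjusted p = 0.0184), a call lost without mNrf2-TG replicate 18 or 19.

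**Figure D5:**
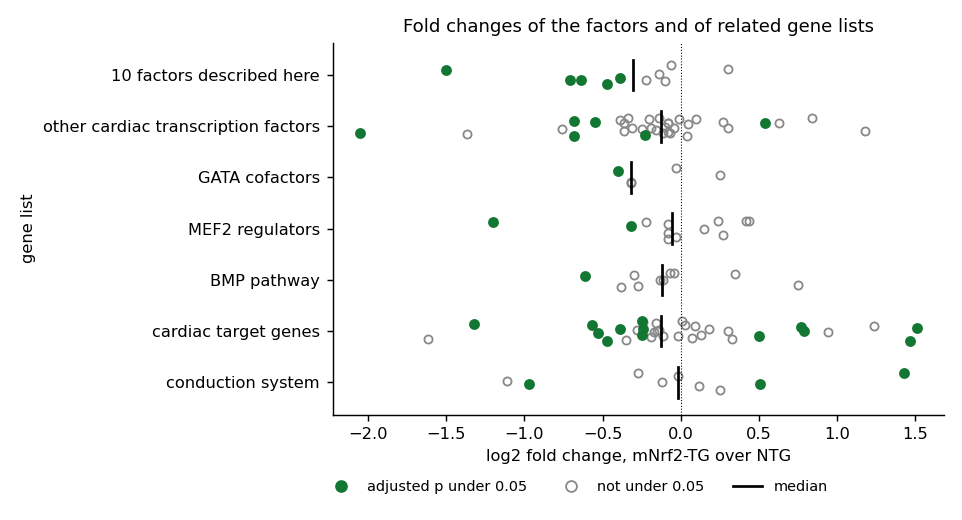
Log2FC (horizontal axis) of the 10 factors and of the genes in the lists of related genes (one line each), filled where the adjusted p was under 0.05, with the list's median as a vertical bar. The median of the 10 factors is -0.31 and those of the other lists lie between -0.32 and -0.02.

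Markers of the conduction system, where Tbx3 is highest, did not share one direction. Of 9 tested, Cacna1g (Log2FC 1.43, adjusted p = 0.00342) and Smoc2 (0.51, adjusted p = 0.0187) rose, Cntn2, a Purkinje fibre marker, fell by 0.97 on the log2 scale (adjusted p = 0.046), and 6 were not called. With 1 library left out, Cntn2 was called in 1 of 7 fits and Smoc2 in 4. The share called was 33.3%, against 17.2% of all genes, in a list chosen with earlier results of these data known. The summed level of these markers was 153 to 247 CPM in NTG and 257 to 279 in mNrf2-TG. Smoc2 was its largest part, at 617 to 1159 counts per library. Hcn4, the pacemaker channel gene, had 45 to 109 counts per library.

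Marker lists of cell types moved with the groups, and their part in the differences of the 10 factors was not tested. The summed level of 7 fibroblast markers was 1121 to 1450 CPM in NTG and 1628 to 1747 in mNrf2-TG, with 5 of the 7 genes higher. That of 6 macrophage and leukocyte markers was 109 to 132 and 194 to 275, with 5 higher. The sum of 8 cardiomyocyte markers was 72641 to 85684 and 60794 to 65765, with 3 lower. The sum of 8 endothelial markers was 924 to 1005 and 875 to 906, with Pecam1 and Cdh5 lower and Kdr higher. With 1 library left out, Pecam1 was called in 7 of 7 fits, Cdh5 in 4 and Kdr in 2, and the groups overlapped for Kdr. The sum of 6 epicardial markers was 20.4 to 32 and 14.4 to 15.7, with only Wt1 called (Log2FC -1.27, adjusted p = 0.0138), a call lost without mNrf2-TG replicate 17. Upk3b, Upk1b, Msln and Krt19 had at most 8 counts per library, so this sum was mostly Wt1 and Aldh1a2. Aldh1a2 was not called (Log2FC -0.65, adjusted p = 0.111), and the median Log2FC of the epicardial list was -0.01.

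The sums of 4 ventricular markers were 16998 to 19601 CPM in NTG and 13000 to 14684 in mNrf2-TG, with Myl2 and Myl3 lower. Myl2 and Myl3 made up nearly all of these sums, and Myl2 is also among the cardiomyocyte markers. Myl3 was called in 2 of 7 fits with 1 library left out. Irx4 and Hey2, at 116 to 248 and 30 to 67 counts per library, were not called (adjusted p = 0.219 and 0.87). For 5 atrial markers the sums were 110 to 210 and 286 to 534, with only Nppa called. These sums were mostly Nppa, since no other atrial marker was above 140 counts in any library. Of the others, Myl4 and Dkk3 had a positive Log2FC (0.94 and 0.82) and Myl7 and Nr2f2 a negative one (-1.62 and -0.31). For 5 skeletal muscle markers the sums were 84 to 156 and 48.6 to 78.3, with Myh1 and Myh4 lower. The other skeletal muscle markers, Actn3, Tnnt3 and Mylpf, had at most 10 counts per library. The sums of smooth muscle and pericyte markers (1185 to 2299 and 1687 to 2178, with Rgs5 lower), red blood cell markers (314 to 505 and 200 to 465, none called), lung markers (at most 1 CPM, none called) and adipose markers (at most 0.844, none called) overlapped between the groups. The smooth muscle overlap came from NTG replicate 3, at 2299, since the other NTG libraries were at 1185 to 1241. Only Acta2 in this list had a positive Log2FC (1.37, adjusted p = 0.163), and it was called without that library (2.53, adjusted p = 0.000132). Every other smooth muscle and pericyte marker had a negative Log2FC, and the list's median was -0.11. Without NTG replicate 3 the lung sums, at most 0.265 in NTG and 0.393 to 1 in mNrf2-TG, did not overlap either.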

How the data were processed

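Heart RNA in 4 NTG and 3 mNrf2-TG libraries was measured by stranded poly(A) RNA sequencing, grouped by the titles and genotype labels. The authors aligned reads with Novoalign 2.08.01 (the methods name hg19 for the index, and the methods and labels mm10, GRCm38) and deposited raw counts per gene. The counting program is not given in the sources used here. The deposited tables also hold rlog values, a signal column of mean normalized counts by the authors, and the p-values and fold changes of their DESeq2 comparison, none of which were used.

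One entry per Entrez gene was kept, removing 24 of 14665. Genes with a summed count above 1 (14637) were compared in edgeR 4.0.16 (R 4.3.3) with TMM scaling and the quasi-likelihood test, adjusted by Benjamini-Hochberg over all of them. Standard errors are the absolute Log2FC over the square root of F. Normalized counts are TMM-scaled to the mean library. Totals of 6534684 to 8405857 limit the precision for genes with few counts. The fits were tested on simulated data. RPKM and positions used GENCODE M21 (GRCm38). Profiles used log2 of CPM plus 0.5.

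The 10 factors and the lists were chosen with earlier results of these data known. Named genes were the 10 factors, up to 4 called genes per list with the largest Log2FC each library of the higher group having at least 10 counts, and 19 genes fixed by name, of which Hand1 and Gata5 were not in the table used here and 1 is not reported here. Tead1, Tbx1 and Ppp3cb were named after their values were seen. So were the markers Hcn4, Myl4, Myl7, Dkk3, Nr2f2, Irx4, Hey2, Acta2, Aldh1a2, Upk3b, Upk1b, Msln, Krt19, Actn3, Tnnt3 and Mylpf. Alternatives were DESeq2 1.42.0, limma-voom (limma 3.58.1), 2 other scalings, 3 other filters and leaving out each library.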

Additional observations from a re-analysis of the deposited data

Results flagged for a closer look

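In the NTG group of 4, a library lay far from the other 3 for 5 of the 56 named genes tested in this way, and chance alone sets a library apart in about 1 group in 20. None of these 5 was among the 10 factors. NTG replicate 3 was the highest for Nppb, with 5428 normalized counts against 680 to 1382 in the other NTG libraries, and for Myh6, with 242999 against 156504 to 166764. NTG replicate 3 was the lowest for Myl3, with 43586 against 47010 to 47700. NTG replicate 4 was the highest for Hdac9, with 328 against 182 to 201, and the lowest for Tbx18, with 28.9 against 54.9 to 56.7.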

How the results depend on the processing

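No paired analysis was possible because the groups share no replicate number (1 to 4 and 17 to 19). Under the other tools, scalings and filters, the 5 called factors were called in every fit and no other factor was. Called genes numbered 1034 to 1326 lower and 1133 to 1383 higher, the extremes of 1034 and 1383 being with library totals alone. With 1 library left out there were 669 to 1479 lower and 704 to 1471 higher genes (fewest without mNrf2-TG replicate 17, most without NTG replicate 3), and 2 to 5 factors called lower and 0 to 1 higher. The Log2FC then ranged from 0.25 to 0.43 for Gata4, -0.43 to -0.30 for Gata6, -0.20 to -0.05 for Nkx2-5, -0.31 to 0.04 for Tbx5, -0.12 to 0.03 for Tbx20, -0.81 to -0.62 for Tbx2, -0.74 to -0.50 for Tbx3, -0.56 to -0.37 for Mef2a, -0.27 to -0.14 for Mef2c and -1.59 to -1.42 for Hand2. Tbx5 changed sign without NTG replicate 4 (0.04) or mNrf2-TG replicate 17 (0.01), and Tbx20 without NTG replicate 3 (0.03). Of other named genes, the sign also changed for Mef2d (-0.11 to 0.01), Srf (-0.01 to 0.13), Tbx18 (-0.35 to 0.08), Hdac7 (-0.07 to 0.03) and Gja5 (-0.04 to 0.16), none of them called. Hdac5 was called without NTG replicate 3 and with library totals alone, and Hdac9 without NTG replicate 4. The cause of these changes was not tested.

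The number of called genes with 1 library left out was 1 to 7 for other cardiac factors, 1 to 4 for MEF2 regulators, 8 to 17 for targets, 1 to 4 for the conduction system, 1 to 3 for atrium, 1 to 2 for ventricle, 2 to 4 for cardiomyocytes, 1 to 3 for endothelium, 2 to 6 for fibroblasts, 0 to 2 for smooth muscle, 0 to 2 for epicardium, 0 to 2 for skeletal muscle and 0 to 1 for red blood cells. It was 2 for atrium with at least 10 counts in each library of a group, 1 for ventricle with library totals alone, 2 for smooth muscle with limma-voom and 1 for red blood cells with DESeq2. With the longest transcript as length, NTG levels were 19.8 RPKM for Gata6, 16.7 for Tbx20, 3.96 for Tbx3, 27.6 for Mef2a and 13.5 for Mef2c. Depth was lowest for Tbx2, at 34 to 85 counts per library, where the standard error of the Log2FC was 0.189, against 0.118 for Hand2. The largest standard error of the 10 factors was 0.253, for Tbx5, which had 85 to 208 counts.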
